A study of Mus musculus with 45 samples.

Results

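The genes described here are 35 genes of glucose uptake, glycolysis, lactate handling, glycogen use and the response to low oxygen, out of 35675 genes to which the deposited transcripts could be assigned. They were chosen by name, and each gene's value is the sum of the estimated read counts of its transcripts. The libraries came from mouse embryonic fibroblasts (MEFs) that carry a doxycycline-inducible form of the muscle transcription factor MyoD and a Pax7-nGFP reporter, a green fluorescent protein driven with the muscle stem cell gene Pax7. All 15 groups have 3 libraries each and share the genotype label Tg:Pax7-nGFP/C57BL6;DBA2. The groups were untreated MEFs, MEFs given doxycycline (MyoD alone) for 2, 4, 6, 8 or 10 days, and MEFs given doxycycline with the small molecules F/R/C for the same days. The labels name the MyoD-alone cells myotubes and the F/R/C cells muscle fibers and progenitor cells. The other 4 groups were bulk induced myogenic progenitor cells (iMPCs) kept in F/R/C medium, Pax7-positive iMPCs purified by fluorescence-activated sorting, bulk primary myoblasts from skeletal muscle, and sorted Pax7-positive myoblasts. The design text calls the established iMPCs doxycycline-independent clones, and the number of clones is not stated. The sample descriptions also give the bulk iMPC libraries a doxycycline period, which is longer than the 10 days of the time courses. They give none for the sorted iMPCs or the myoblasts. The part of this period in the iMPC results was not tested. The sources do not say whether the libraries of a group came from separate animals or cultures, so p-values measure only the spread between these samples, which may be in part technical.

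Glycolysis breaks glucose down to pyruvate in the cytosol, and lactate dehydrogenase turns pyruvate into lactate. Skeletal muscle uses its own forms of several of these enzymes: Eno3 (beta enolase), Pgam2 (the muscle phosphoglycerate mutase), Pfkm (the muscle subunit of phosphofructokinase) and Pygm (muscle glycogen phosphorylase, which releases glucose units from stored glycogen). Eno1, Pgam1, Pfkl, Pfkp and Pygl are the forms used by most other tissues. When oxygen is low, the transcription factor HIF-1 is stabilised and raises many of the same glycolytic genes together with Car9, Bnip3, Egln3, Pdk1 and Vegfa, which makes these genes readouts of that response in many cell types.

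Pyruvate kinase (Pkm) makes a muscle form, M1, and a form of proliferating and embryonic cells, M2, from the same gene by using one or the other of a pair of exons. These exons are shown because the transcript tables separate the forms through them. They are on chromosome 9, plus strand, of GRCm38, the M1 exon of transcript Pkm-202 at chr9:59675029-59675195 and the M2 exon of transcript Pkm-201 at chr9:59675568-59675734. Each has 167 bases, of which 64 differ between them, written in capitals, and 103 are identical.
Pkm M1 exon: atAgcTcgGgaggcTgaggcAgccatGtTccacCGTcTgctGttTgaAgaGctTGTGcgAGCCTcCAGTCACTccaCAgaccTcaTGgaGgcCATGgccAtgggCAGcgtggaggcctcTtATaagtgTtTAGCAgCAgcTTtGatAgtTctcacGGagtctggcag
Pkm M2 exon: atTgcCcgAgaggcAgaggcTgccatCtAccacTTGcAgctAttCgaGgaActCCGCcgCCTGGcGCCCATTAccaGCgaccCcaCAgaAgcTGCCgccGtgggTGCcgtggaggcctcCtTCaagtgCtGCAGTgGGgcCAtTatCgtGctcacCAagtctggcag

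Promoters are shown for a pair of muscle isoforms and a pair of hypoxia genes whose values the results turn on. The sequences are the 250 bases before the annotated start, 5′ to 3′ on the gene's strand, from RefSeq on GRCm38.p6. The letters searched, on both strands, were CAGCTG, a palindrome that is an E-box of the kind MyoD binds, and ACGTG, the core of the element that HIF-1 binds, and matches are in capitals. The Pgam2 window is chr11:5803797-5804046 on the minus strand, with CAGCTG starting 125 bases before the start. The Pygm window is chr19:6384158-6384407 on the plus strand, with CAGCTG at 168 and 8 bases and the core, read on the other strand, at 61 bases before the start. In Bnip3, chr7:138909507-138909756 on the minus strand, the core is present on both strands as overlapping matches at 108 and 107 bases. In Egln3, chr12:54203875-54204124 on the minus strand, it is at 229 bases.
Pgam2 promoter: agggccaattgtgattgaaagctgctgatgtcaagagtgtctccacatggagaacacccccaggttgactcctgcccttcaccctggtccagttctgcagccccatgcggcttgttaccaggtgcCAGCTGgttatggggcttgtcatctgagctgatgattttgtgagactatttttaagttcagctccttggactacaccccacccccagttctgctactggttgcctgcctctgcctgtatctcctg
Pygm promoter: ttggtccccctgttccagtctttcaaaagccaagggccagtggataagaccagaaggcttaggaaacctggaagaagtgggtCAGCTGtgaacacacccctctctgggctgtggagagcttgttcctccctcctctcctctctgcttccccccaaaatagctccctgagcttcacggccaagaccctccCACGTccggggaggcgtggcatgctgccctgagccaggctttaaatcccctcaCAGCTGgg
Bnip3 promoter: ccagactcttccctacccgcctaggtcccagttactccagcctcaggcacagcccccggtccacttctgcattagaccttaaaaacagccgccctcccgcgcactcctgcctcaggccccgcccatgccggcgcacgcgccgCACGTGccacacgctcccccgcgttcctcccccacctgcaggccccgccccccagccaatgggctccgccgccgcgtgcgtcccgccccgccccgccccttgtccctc
Egln3 promoter: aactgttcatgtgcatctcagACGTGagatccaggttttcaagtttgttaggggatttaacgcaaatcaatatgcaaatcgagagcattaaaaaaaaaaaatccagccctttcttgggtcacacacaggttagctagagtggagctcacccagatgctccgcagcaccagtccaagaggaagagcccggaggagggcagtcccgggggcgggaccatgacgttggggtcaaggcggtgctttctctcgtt
Of the 35 genes, 33 had a promoter in the table. CAGCTG was in the windows of 8 of these 33 genes, or 17% of their 47 windows, and in 13% of all 32841 windows. The ACGTG core was in the windows of 17 of the 33 genes, or 42.6% of their 47 windows, and in 16.6% of all windows. The Eno3 window held neither. A match describes letters in a window and says nothing of whether a factor was bound there.

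Libraries held between 15.6 and 36.3 M estimated reads (median 22.1 M, M being 1000000), and levels are given as CPM, reads per 1000000 reads of the normalised library size, unless stated. Some libraries stood apart within their group. In the F/R/C series the library numbered 3 was the highest of its group for 32, 33 and 31 of the 35 genes on days 6, 8 and 10. The same held for 35.7%, 39.8% and 44.5% of all genes tested. On these days it was more than 2-fold above both others for 7, 11 and 10 of the 35 genes, against 2.47%, 6.18% and 9.22% of all genes tested. The libraries numbered 3 of the MEF, MyoD-alone and F/R/C series carried Y-linked reads at 146 to 180 CPM and Xist at no more than 0.414 CPM, whereas those numbered 1 and 2 had Xist at 262 to 677 CPM, so not all libraries of these groups came from the same animal. Replicate 1 of the Pax7-positive iMPCs was highest for 28 of the 35 genes and more than 2-fold above both others for 11, against 36.8% and 8.12% of all genes tested. In the bulk myoblasts a sum of 12 differentiated muscle genes was 33394, 19271 and 1165 CPM, and a sum of 12 proliferation genes was 535, 830 and 1382 CPM, so that replicate 3 held little differentiated muscle RNA. The sum of 12 fibroblast markers was 20187 to 25301 CPM in MEFs, 14005 to 30529 CPM with MyoD alone on day 10 and 1448 to 5470 CPM with F/R/C on day 10. A single matrix gene, Fn1, can make up most of it. In MyoD-alone replicate 1 of day 8, Fn1 was at 24200 CPM and the sum at 33394 CPM. The part of these differences between libraries and groups in the results below was not tested unless a value is given. In bulk samples, fewer cells of a type and less RNA per cell cannot be told apart.

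A gene was called higher or lower when edgeR's quasi-likelihood test gave a Benjamini-Hochberg adjusted p under 0.05 over all 17325 genes tested and the difference was at least 2-fold. All 35 genes passed the filter on low counts. Against MEFs, MyoD alone had 9 of the 35 genes higher and 6 lower on day 2, beside 12.3% and 10.1% of all genes tested. On day 10 it had 9 higher and 3 lower, beside 14.3% and 4.64% of all genes. The F/R/C cells had 9 higher and 5 lower on day 2, beside 11.5% and 8.93% of all genes, and 13 higher and 1 lower on day 10, beside 19% and 15.8%. In either direction these calls covered 42.9%, 34.3%, 40% and 40% of the 35 genes in that order, against 22.4%, 18.9%, 20.4% and 34.8% of all genes. The median log2 fold change over the 35 genes was 0.02, -0.04, 0.12 and 0.86, beside 0.00, 0.01, 0.00 and 0.08 over all genes tested. The 3 genes with the largest changes were the same in each of the 4 comparisons, Pygm, Pgam2 and Slc2a4.

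**Figure D1:**
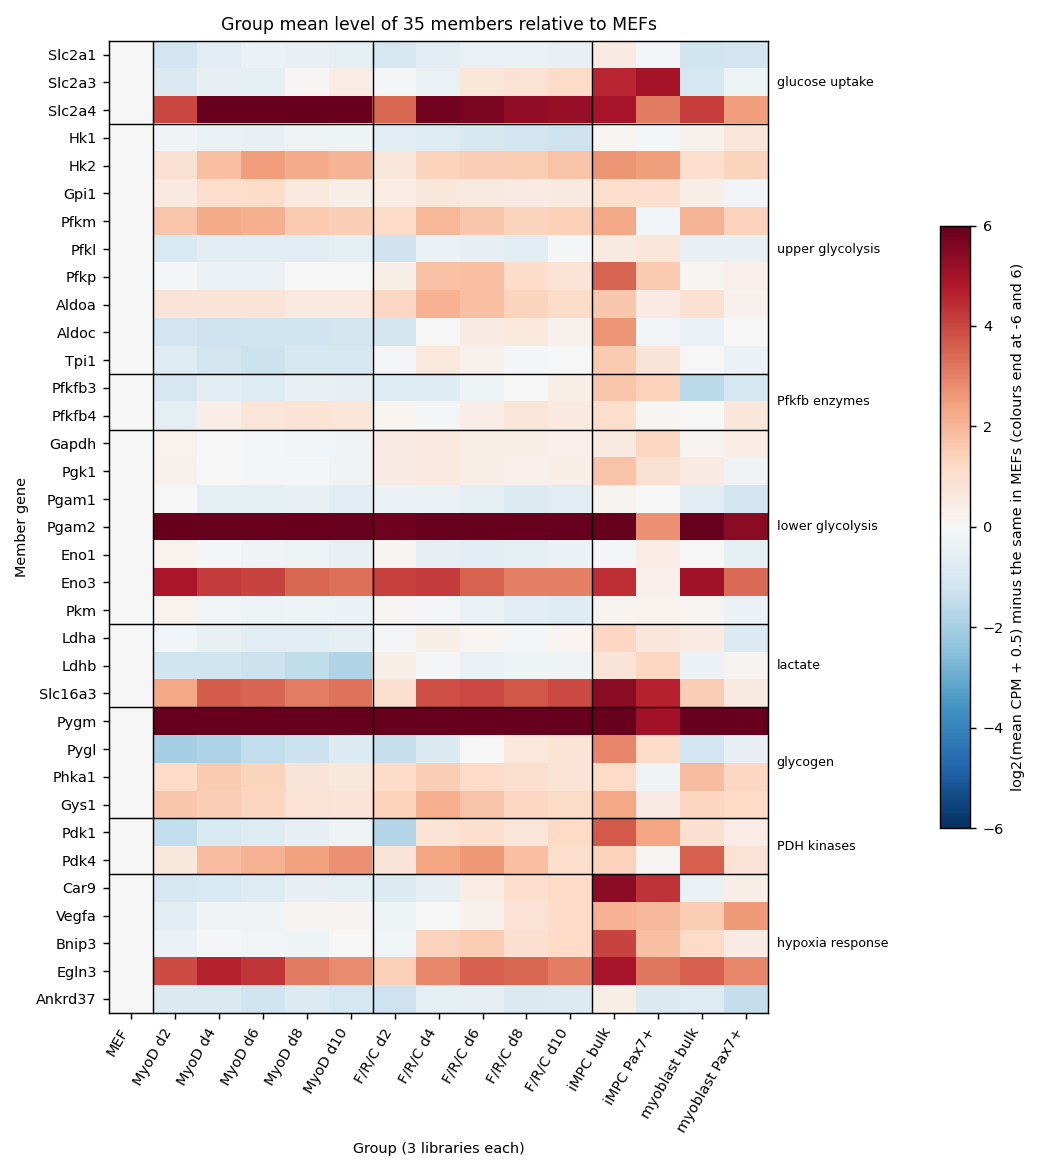
Level of each of the 35 genes (from top to bottom, by role) in each of the 15 groups (from left to right), as the log2 of the group mean CPM plus 0.5, minus the value in MEFs. Colours end at -6 and 6; the muscle isoforms and Slc2a4 lie above their MEF value in every MyoD group and in bulk iMPCs, and the hypoxia genes Car9 and Bnip3 had their highest mean in bulk iMPCs.

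Pygm, muscle glycogen phosphorylase, was read at 1.58, 0.511 and 0.571 CPM in the 3 MEF libraries. With MyoD alone it was at 87.4, 129 and 106 CPM on day 2, 441, 807 and 396 CPM on day 4 and 192, 459.5 and 175 CPM on day 10. The F/R/C libraries held 87, 142 and 102 CPM on day 2, 484, 815 and 854 CPM on day 4 and 227, 326 and 618 CPM on day 10. Every MyoD library lay above every MEF library, and the rise was called on day 2 with MyoD alone (log2 change 6.87, SE 0.78, adjusted p = 3.7e-08) and with F/R/C (log2 change 6.92, SE 0.78, adjusted p = 4.7e-08). On day 10 the changes were 8.24 (SE 0.82, adjusted p = 4.1e-09) with MyoD alone and 8.74 (SE 0.84, adjusted p = 1.1e-09) with F/R/C on the log2 scale. MEF replicate 1 had the highest Pygm of the MEFs, and without it these 4 log2 changes were 7.60, 7.66, 8.96 and 9.56. Without replicate 2 of MyoD alone on day 10 that change was 7.64.

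Pgam2, the muscle phosphoglycerate mutase of lower glycolysis, was at 1.93, 0.418 and 0.697 CPM in MEFs. It reached 74.7, 132 and 116 CPM on day 2 and 114, 251 and 109 CPM on day 10 with MyoD alone, and in the F/R/C cells it reached 55.4, 121 and 84.3 CPM on day 2 and 119, 194 and 269.5 CPM on day 10. The groups did not overlap with MEFs. The log2 changes from MEFs were 6.68 (SE 0.78), 7.24 (SE 0.80), 6.38 (SE 0.77) and 7.54 (SE 0.81), with adjusted p of 5.9e-08, 2.1e-08, 1.5e-07 and 7.2e-09. Without MEF replicate 1 they were 7.59, 8.14, 7.30 and 8.54. Its counterpart Pgam1, the form of most tissues, was at 454, 475 and 442 CPM in MEFs, 326, 239 and 328 CPM with MyoD alone on day 10 and 326, 277 and 242 CPM with F/R/C on day 10. Pgam1 passed the 2-fold call in 1 of the 16 comparisons of this report.

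Eno3, the muscle enolase, was at 23.2, 18.7 and 33.4 CPM in MEFs and at its highest in the time courses on the first day measured. On day 2 it was at 673, 1004 and 641 CPM with MyoD alone (log2 change 4.95, SE 0.40, adjusted p = 4.7e-11) and 375, 609.6 and 335 CPM with F/R/C (log2 change 4.13, SE 0.38, adjusted p = 1.2e-09). On day 10 it was at 209, 354 and 199.6 CPM with MyoD alone and 140.2, 155 and 325 CPM with F/R/C, log2 changes from MEFs of 3.34 (SE 0.37, adjusted p = 2.2e-08) and 3.04 (SE 0.37, adjusted p = 5.1e-08). All of these libraries lay above the MEFs. Eno1, the enolase of most tissues, was at 992, 1329 and 1152 CPM in MEFs and at 871, 675 and 1018 CPM with MyoD alone and 932, 951 and 820.2 CPM with F/R/C on day 10. Pkm and Gapdh, the abundant enzymes beside them, were called in none of the 16 comparisons by this test. Their levels ranged from 1051 to 3281 CPM and from 2223 to 8320 CPM over the 45 libraries.

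Pfkm changed less than the other muscle isoforms. It was at 80.6, 65.2 and 61.1 CPM in MEFs, 169, 259.7 and 239 CPM on day 2 and 148, 286 and 136 CPM on day 10 with MyoD alone, and 121, 189.9 and 149 CPM and 119, 139.8 and 307 CPM on those days with F/R/C. The groups did not overlap with MEFs, and the log2 changes were 1.69 (SE 0.46, adjusted p = 0.0048) and 1.46 (SE 0.46, adjusted p = 0.016) with MyoD alone. In the F/R/C cells they were 1.15 (SE 0.46, adjusted p = 0.049) and 1.45 (SE 0.46, adjusted p = 0.0087). Only the day 2 call with MyoD alone was kept without each library in turn. The largest adjusted p when 1 library was left out was 0.15 for MyoD alone on day 10 (without its replicate 2) and for F/R/C on day 2 (without its replicate 2), and 0.065 for F/R/C on day 10 (without its replicate 3). Pfkl, the liver-type subunit, was at 139, 95.8 and 83.3 CPM in MEFs, 56.5, 61 and 49.5 CPM with MyoD alone on day 2 and 46.6, 46.8 and 38.5 CPM with F/R/C on day 2. Its level in the F/R/C cells of day 2 was called lower (log2 change -1.27, SE 0.29, adjusted p = 0.0011).

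Per unit of transcript length, the muscle form made up a larger share of its pair in every time-course group than in MEFs. These shares come from the deposited TPM, transcripts per 1000000 transcripts, and are given as a description with no test. Eno3 was 3.89 ± 1.85% (SD, n = 3) of Eno1 plus Eno3 in MEFs, 45.4 ± 5.71% with MyoD alone on day 2 and 29.8 ± 10.1% on day 10. With F/R/C it was 34.1 ± 5.72% on day 2 and 23.5 ± 9.46% on day 10, with single libraries at 18.1, 17.8 and 34.4%, so that replicate 3 of day 10 stood well above the others. Pgam2 was 0.542 ± 0.433% of Pgam1 plus Pgam2 in MEFs and passed the ubiquitous form by day 4, with 65.4 ± 10.1% with MyoD alone and 65.3 ± 8.6% with F/R/C. Pygm was 51.6 ± 14.2% of Pygm plus Pygl in MEFs, where both genes were near the limit of reading, and between 98.9% and 99.9% on average in the time-course groups.

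Phosphofructokinase has 3 subunit genes, and its shares were taken over all of them. Pfkm was 35.1 ± 1.29% of the 3 subunit genes in MEFs, 77.9 ± 4.52% with MyoD alone on day 4 and 60.8 ± 1.86% with F/R/C on day 4. The share of Pfkp, the platelet-type subunit, differed the other way. Pfkp was at 8.02, 2.88 and 6.59% in the MyoD-alone libraries and 18.4, 20.2 and 21.8% in the F/R/C libraries of day 4, which did not overlap. In bulk iMPCs Pfkp was 40.7 ± 5.93% and Pfkm 42 ± 6.6%, the highest mean Pfkp share of the 15 groups.

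In the established cells, sorted and bulk iMPCs differed in these shares. In bulk iMPCs Eno3 was 46.9, 31.2 and 32% of its pair and Pgam2 54.6, 41.9 and 47.4%. In the Pax7-positive iMPCs Eno3 was 1.98, 4.04 and 2.88% and Pgam2 3.00, 8.16 and 3.68%, with no overlap between the sorted and the bulk libraries for either gene. In bulk myoblasts Eno3 was 58.6, 54.8 and 36.3% and Pgam2 72.7, 61.1 and 9.28%, the low Pgam2 value being that of replicate 3, which also held little differentiated muscle RNA. In Pax7-positive myoblasts Eno3 was 33.8, 31.3 and 33% and Pgam2 25.8, 38.3 and 64.3%. The sorted and bulk myoblasts overlapped for Pgam2 and not for Eno3. Every Pax7-positive iMPC library had a lower share of both than every Pax7-positive myoblast library. The same held for Pfkm, at 13.5, 24.9 and 26.5% against 44.6, 57.3 and 70.3%. Pygm was at 58.3, 95.7 and 94.5% of its pair in the Pax7-positive iMPCs, with replicate 1 far below the others.

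**Figure D2:**
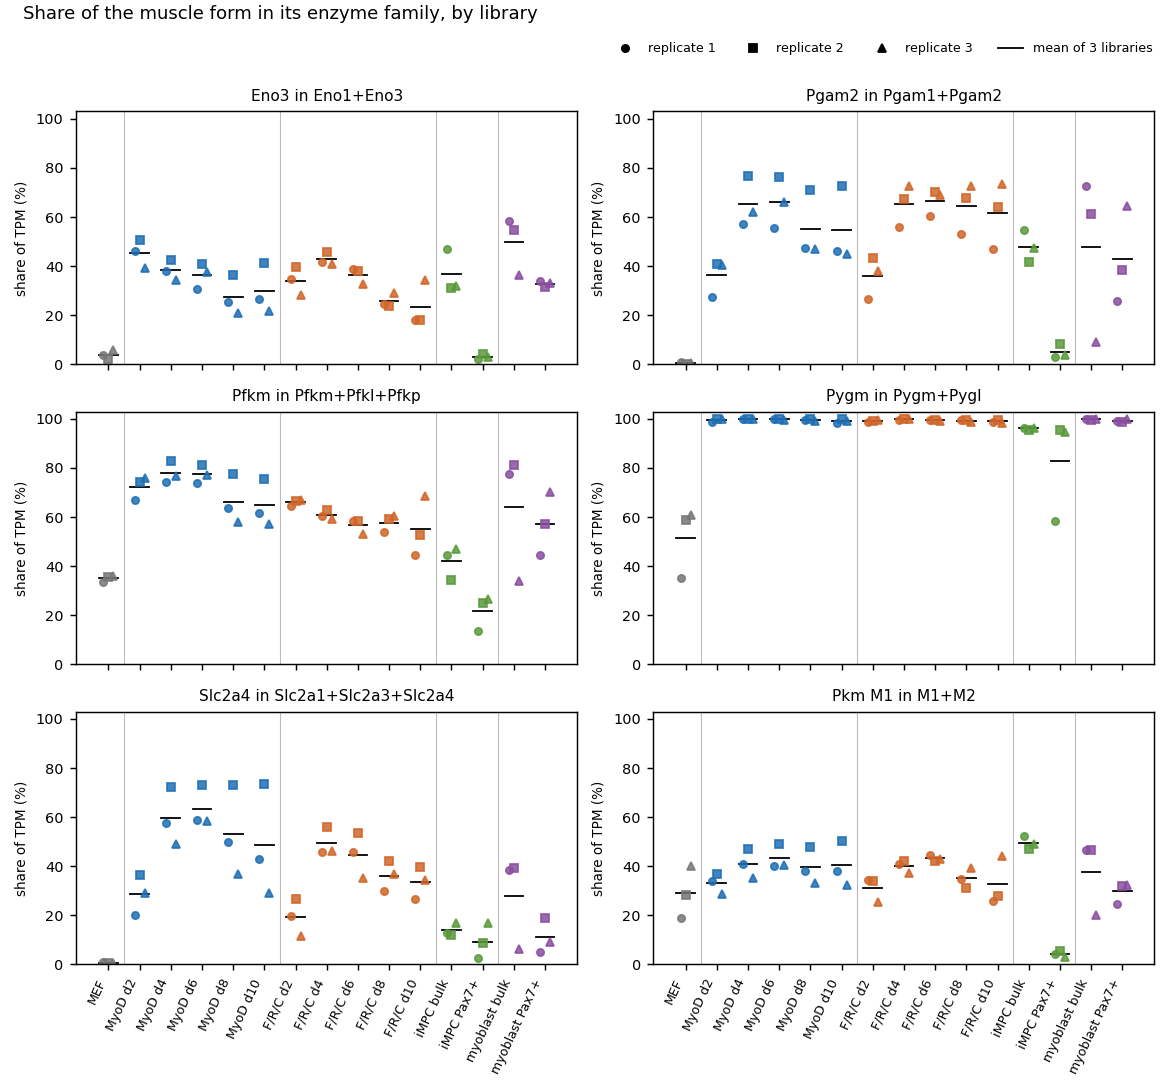
Share of the muscle form within its pair or family in each library, in percent of TPM, for Eno3, Pgam2, Pfkm, Pygm, Slc2a4 and the M1 form of Pkm in the 15 groups, where points are libraries numbered 1 to 3. MEFs and Pax7-positive iMPCs held the lowest Eno3 and Pgam2 shares, and the 3 Pax7-positive iMPC libraries held 3.23% to 5.37% of the M1 and M2 transcripts as M1.

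The shares of the Pkm exon pair shown above were described in the same way, with no test. Transcripts with the M1 exon made up 19.1, 28.4 and 40.2% of the M1 and M2 transcripts in MEFs, and the 3 libraries were widely spread. The share was 43.3 ± 5.16% with MyoD alone and 43.3 ± 1.07% with F/R/C on day 6, and 52.3, 47 and 49.3% in the bulk iMPC libraries. With F/R/C it was 34.3, 34.1 and 25.3% on day 2 and 25.7, 28 and 44.3% on day 10, overlapping the MEF libraries. The mean was above that of MEFs in 13 of the 14 other groups, and in 9 to 13 when 1 library was left out. The Pax7-positive iMPCs were lowest, at 4.27, 5.37 and 3.23%, below every other library. The share leaves out the transcript Pkm-210, which held 29.4% of Pkm TPM on average in these sorted libraries and 0 in the libraries that were not sorted. The Pax7-positive myoblasts held 24.7, 32.1 and 32.5%, and the bulk myoblasts 46.7, 46.7 and 20.0%. The total Pkm level was called different in none of the comparisons. Kallisto assigns reads to forms by estimation, and the sorted libraries were quantified with another effective-length setting, which cannot be told apart from sorting here.

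Glucose uptake showed 3 different patterns. Slc2a4 encodes GLUT4, the insulin-responsive transporter of muscle and fat. It was at 0.747, 0.186 and 0.254 CPM in MEFs, 9.78, 18.2 and 13.2 CPM on day 2 and 75.1, 158 and 100.1 CPM on day 6 with MyoD alone, and 40.1, 104 and 32.9 CPM on day 10. In the F/R/C cells it was at 8.04, 12.7 and 6.72 CPM on day 2, 37.3, 46.2 and 50.0 CPM on day 6 and 17.7, 36 and 44.6 CPM on day 10. All of these lay above the MEFs. The log2 changes on days 2 and 10 were 5.05 (SE 0.79) and 7.15 (SE 0.83) with MyoD alone, and 4.46 (SE 0.78) and 6.31 (SE 0.81) with F/R/C, with adjusted p from 4.6e-08 to 4.5e-05. Without MEF replicate 1 they were 5.94, 8.02, 5.36 and 7.29, and without replicate 2 of MyoD alone on day 10 the change of that group was 6.45. Slc2a4 was lower with F/R/C than with MyoD alone in replicate 1 and 2 on average (mean log2 differences of -0.87 and -1.31 over the 5 days) and by -0.35 in replicate 3, and no single day was called.

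Slc2a1 encodes GLUT1, the transporter of most cells. It was at 82.8, 105 and 89.7 CPM in MEFs and 39.9, 34.9 and 48.6 CPM with MyoD alone on day 2, a fall called by the test (log2 change -1.17, SE 0.36, adjusted p = 0.011) that was not called without replicate 2 of that group (-1.08, adjusted p = 0.052). The highest Slc2a1 means were in bulk iMPCs, at 145, 126 and 126 CPM, whereas in Pax7-positive iMPCs replicate 1 was at 163 CPM and the others at 58.4 and 41.0 CPM. Slc2a3 encodes GLUT3, a transporter of high affinity. It stayed between 0.573 and 7.64 CPM in all libraries of the time courses, and was at 77.8, 55.2 and 50.9 CPM in bulk iMPCs and 213, 15.2 and 16.3 CPM in Pax7-positive iMPCs. All 6 iMPC libraries lay above the libraries of every other group.

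Of the hexokinases, which trap glucose as glucose 6-phosphate, Hk2 is the muscle-enriched and inducible form. It was at 33, 16.2 and 27.6 CPM in MEFs and 102, 118 and 105 CPM with MyoD alone and 85.5, 77 and 89.8 CPM with F/R/C on day 10, with no overlap. The rise was called in both (2.08, SE 0.27, adjusted p = 3.5e-07, and 1.72, SE 0.27, adjusted p = 3.3e-06). Hk1, the form of most tissues, was at 164, 140.2 and 159 CPM in MEFs and fell with F/R/C to 59.5, 48.7 and 89.2 CPM on day 10 (log2 change -1.23, SE 0.22, adjusted p = 3.2e-05), and without replicate 2 of that group the change was -0.98, under 2-fold. Hk1 was at 131, 96.2 and 163 CPM with MyoD alone on that day and was not called. Gpi1 and Aldoa, the isomerase and aldolase of the next steps, were at their highest means with MyoD alone on day 6 (1120.2 CPM) and with F/R/C on day 4 (4197 CPM), and Aldoa in the F/R/C cells passed MEFs by log2 changes of 1.26 on day 2 and 1.12 on day 10, both called, the latter not without MEF replicate 3.

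Aldoc, the brain-type aldolase, was near the limit of reading in the time courses. MEF libraries had 1.98, 0.465 and 0.317 CPM, and MyoD-alone libraries were at no more than 0.249 CPM from day 2 to day 10. It was called lower than in MEFs with MyoD alone on days 2 and 10 and with F/R/C on day 2. None of these calls was kept without MEF replicate 1, where the log2 changes were -1.55, -1.33 and -1.34 with adjusted p of 0.29, 0.38 and 0.36. Pygl, the liver glycogen phosphorylase, gave the same picture on day 2 of MyoD alone, where it fell from 5.36, 1.44 and 1.08 CPM to 0.535, 0.172 and 0.135 CPM (log2 change -3.21, SE 1.06, adjusted p = 0.018). Without MEF replicate 1 that change was -2.16 with an adjusted p of 0.14.

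Of the other glycogen genes, Gys1, the glycogen synthase of muscle, rose with MyoD alone on day 2 from 83.2, 75.9 and 66.2 CPM to 216, 261 and 242 CPM (log2 change 1.67, SE 0.35, adjusted p = 0.00036). It was called higher with F/R/C on day 2 (1.40) and on day 10 (1.11), the latter under 2-fold without replicate 3 of that group (0.89, adjusted p = 0.036). Phka1, a regulatory subunit of phosphorylase kinase in muscle, rose on day 2 with MyoD alone (1.17, SE 0.30, adjusted p = 0.0025) and with F/R/C (1.12, SE 0.30, adjusted p = 0.0038). Its levels were 18.1, 21.4 and 20.8 CPM in MEFs and 43.3, 52 and 40.4 CPM with MyoD alone on day 2.

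Among the lactate genes, Slc16a3, the lactate exporter MCT4 of glycolytic muscle, was at 5.98, 1.3 and 1.2 CPM in MEFs and 24.7, 56.5 and 11.6 CPM with MyoD alone and 29.7, 36.3 and 89.7 CPM with F/R/C on day 10. All 6 day 10 libraries lay above the MEFs (3.42, SE 0.84, adjusted p = 0.0024 and 4.17, SE 0.86, adjusted p = 0.00016). Without MEF replicate 1 the log2 changes were 4.58 and 5.43, and without replicate 2 of MyoD alone that of MyoD alone was 2.65. Ldhb, the lactate dehydrogenase subunit of heart and oxidative tissue, fell with MyoD alone, from 68.1, 76.9 and 66.8 CPM to 35, 29.3 and 26.3 CPM on day 2 (log2 change -1.23, SE 0.33, adjusted p = 0.0046) and 22.5, 16.6 and 21.1 CPM on day 10 (log2 change -1.81, SE 0.34, adjusted p = 0.00012). These groups did not overlap. It was not called different from MEFs with F/R/C on days 2 and 10, where it was at 96.4, 78.6 and 99.9 CPM and 80.3, 35.8 and 67.7 CPM. Ldha, the muscle-type subunit, was at 628, 608 and 576 CPM in MEFs and 641, 600.4 and 709.6 CPM with F/R/C on day 10.

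The pyruvate dehydrogenase kinases switch off pyruvate dehydrogenase, the enzyme that converts pyruvate inside mitochondria. Pdk4, the form raised in muscle by fasting and fat use, was at 13.3, 16.1 and 47.1 CPM in MEFs and 160.4, 281 and 83.9 CPM with MyoD alone on day 10 (log2 change 2.78, SE 0.69, adjusted p = 0.0026), a log2 change of 3.50 without MEF replicate 3, the highest of the MEFs. Pdk1, the form raised by HIF-1, was at 23.6, 14.8 and 15 CPM in MEFs and 5.76, 4.27 and 4.69 CPM with F/R/C on day 2 (log2 change -1.86, SE 0.54, adjusted p = 0.0077). On day 10 with F/R/C it was at 28.5, 29 and 67.8 CPM, called higher than in MEFs (log2 change 1.23, SE 0.51, adjusted p = 0.044), but not without replicate 3 of that group (0.82, adjusted p = 0.2) or without MEF replicate 2 or 3 (adjusted p of 0.092 and 0.11).

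Egln3, a prolyl hydroxylase that marks HIF for destruction and is itself raised by HIF, rose in both time courses. It was at 9.89, 6.88 and 7.1 CPM in MEFs and reached 139.7, 143 and 99.8 CPM on day 2, 198, 186 and 238 CPM on day 4 and 61.7, 73.6 and 44.4 CPM on day 10 with MyoD alone. The rise was called on day 2 (log2 change 4.00, SE 0.46, adjusted p = 3.9e-08) and on day 10 (log2 change 2.91, SE 0.44, adjusted p = 4.6e-06). Of the other hypoxia genes, Car9, Vegfa, Ankrd37 and Bnip3, none was called against MEFs with MyoD alone on day 2 or 10, the days tested. Pdk1, also raised by HIF-1, was called lower with MyoD alone on day 2. That call was lost without MEF replicate 1 or MyoD-alone replicate 2 or 3 (adjusted p of 0.077, 0.058 and 0.063). At an unadjusted p under 0.05, Car9 was lower on day 2 and Ankrd37 on day 10, and DESeq2 called 16 of the 35 genes on day 2 and 13 on day 10. Car9, a carbonic anhydrase of the cell surface, had 3 reads in each MyoD-alone library of day 2 and was at least 4.81-fold higher in MEFs, by the mean against a floor of 3 reads per library. Bnip3, a mitochondrial protein of mitophagy, was at 30.7, 26.1 and 23.9 CPM in MEFs and 22, 36.6 and 23.4 CPM with MyoD alone on day 10. With F/R/C on day 10, Bnip3 was at 39.9, 41.7 and 105 CPM, called higher than in MEFs (log2 change 1.21, SE 0.50, adjusted p = 0.043) but not without replicate 3 (0.74, adjusted p = 0.24) or without MEF replicate 2 or 3 (adjusted p of 0.069 and 0.1). Vegfa, the vascular growth factor, was at 65.2, 28.5 and 36.4 CPM in MEFs and 97.6, 87 and 101 CPM with F/R/C on day 10 (log2 change 1.13, SE 0.37, adjusted p = 0.0097), with no overlap.

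The effect of F/R/C was read by comparing the F/R/C and MyoD-alone groups on the same day. Of the 35 genes, 1 was higher and 1 lower on day 2, beside 2.13% and 2.8% of all genes. On day 4, 7 were higher and 1 lower, beside 6.58% and 6.66%. On day 6, 6 were higher and 1 lower, beside 8.23% and 7.14%. On day 8, 4 were higher and 0 lower, beside 9.2% and 9.46%. On day 10, 5 were higher and 1 lower, beside 9.91% and 13.4%. In either direction this was 5.71%, 22.9%, 20%, 11.4% and 17.1% of the 35 genes, against 4.93%, 13.2%, 15.4%, 18.7% and 23.3% of all genes. For the 0 lower on day 8, edgeR found 2 genes lower at an unadjusted p under 0.05, Hk1 and Hk2, and DESeq2 called 0. Over the average of the 5 days, 8 were higher and 0 lower, beside 11.6% and 10.5% of all genes, with 6 lower at an unadjusted p under 0.05 and 0 called lower by DESeq2. The share of the 35 genes called over the average, 22.9%, was near that of all genes, 22.1%. The median log2 fold change over the 35 genes was 0.21, beside -0.03 over all genes tested. The average counts same-numbered libraries of different days as independent. The sources do not say whether these share cells, so its p-values may be too small. Without the F/R/C libraries numbered 3, left out on all days after the data were seen, 4 were called over the average, and 2, 6, 5, 1 and 5 on days 2, 4, 6, 8 and 10. On days 4 and 6 the count was 5 and 3 without F/R/C replicate 3 of that day, and on day 8 it was 2 without F/R/C replicate 3 and 8 without F/R/C replicate 1 or 2.

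**Figure D3:**
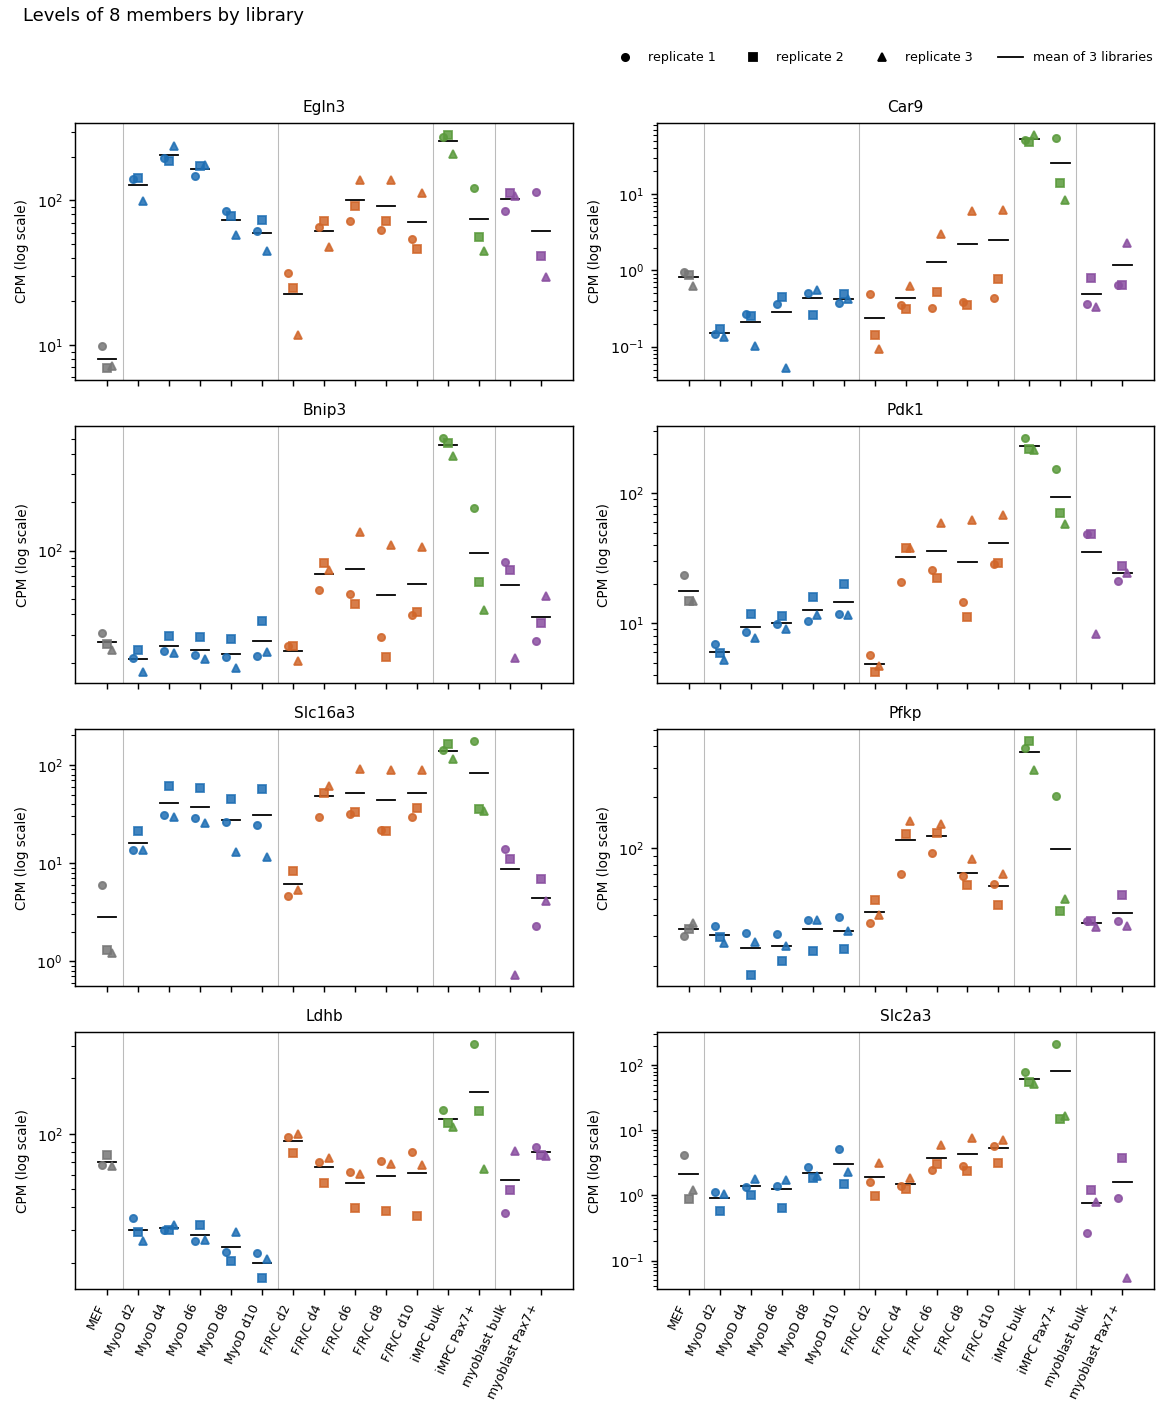
CPM on a log axis of 8 genes (Egln3, Car9, Bnip3, Pdk1, Slc16a3, Pfkp, Ldhb and Slc2a3) in every library of the 15 groups, where circles, squares and triangles are replicates 1, 2 and 3 and bars are group means. The triangles of the F/R/C groups of days 6, 8 and 10 lie above the circles and squares for Car9, Bnip3, Pdk1 and Slc16a3, whereas Pfkp and Ldhb of all F/R/C libraries of days 4 and 6 lie above those of MyoD alone.

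Pfkp, the platelet-type phosphofructokinase subunit, rose with F/R/C in all 3 replicate numbers. On day 4 it was at 31.5, 17.8 and 27.8 CPM with MyoD alone and 70.7, 121 and 145 CPM with F/R/C (log2 change 2.13, SE 0.36, adjusted p = 6.8e-05, or 4.37-fold). On day 6 it was at 30.9, 21.5 and 26.5 CPM against 93.6, 123 and 139 CPM (log2 change 2.17, SE 0.36, adjusted p = 6e-05). No libraries overlapped on these days, and over the 5 days the mean log2 difference was 0.86, 1.62 and 1.52 in the replicate numbers 1, 2 and 3. On day 8 it was at 37.8, 24.5 and 37.8 CPM against 68.1, 60.6 and 86.5 CPM, a call (log2 change 1.10, SE 0.35, adjusted p = 0.016) that was lost without MyoD-alone replicate 2 (0.95, adjusted p = 0.073). The average over the days was 1.35 (SE 0.16, adjusted p = 9.9e-09) and was called with and without the libraries numbered 3.

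Ldhb also differed in each replicate number. On day 2 it was at 35, 29.3 and 26.3 CPM with MyoD alone and 96.4, 78.6 and 99.9 CPM with F/R/C (log2 change 1.60, SE 0.34, adjusted p = 0.0025). On day 8 the values were 22.9, 20.6 and 29.4 CPM and 71, 38.2 and 68.5 CPM (log2 change 1.29, SE 0.33, adjusted p = 0.0037), and on day 10 they were 22.5, 16.6 and 21.1 CPM and 80.3, 35.8 and 67.7 CPM (log2 change 1.61, SE 0.34, adjusted p = 0.00037). The F/R/C libraries were higher on all 5 days in every replicate number, with no overlap on the days given. The average difference was 1.31 (SE 0.15, adjusted p = 6.1e-09). Tpi1, the isomerase that interconverts the products of aldolase, had an average difference of 1.19 (SE 0.17, adjusted p = 2.9e-07), higher on all 5 days in each replicate number, and 0.91 without the libraries numbered 3, under 2-fold. On day 4 it was at 216, 168 and 239 CPM with MyoD alone and 501, 699.9 and 908 CPM with F/R/C. Gapdh was higher by 0.49 on average, under 2-fold and in the same direction in each replicate number on all 5 days.

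Pdk1, Bnip3 and Car9 differed most between F/R/C and MyoD alone in the libraries numbered 3. Pdk1 was at 8.6, 11.8 and 7.7 CPM with MyoD alone and 21, 37.8 and 38 CPM with F/R/C on day 4 (log2 change 1.78, SE 0.53, adjusted p = 0.013), where the groups did not overlap. On day 6 it was at 9.96, 11.4 and 9.11 CPM and 25.9, 22.3 and 59.4 CPM (log2 change 1.82, SE 0.53, adjusted p = 0.011), and without F/R/C replicate 3 the difference was 1.29 with an adjusted p of 0.093. Over the 5 days the mean log2 difference was 0.80, 0.44 and 1.92 for Pdk1 and 0.80, 0.42 and 1.83 for Bnip3 in the replicate numbers 1, 2 and 3. The average differences of Pdk1 (1.21, SE 0.23, adjusted p = 3.9e-05) and Bnip3 (1.16, SE 0.23, adjusted p = 4.5e-05) were 0.78 and 0.77 without the libraries numbered 3, with adjusted p of 0.0013 and 0.0011. Bnip3 on day 4 was at 23.8, 29.2 and 23.1 CPM against 56.7, 83.5 and 75.7 CPM without overlap, and its call (log2 change 1.50, SE 0.51, adjusted p = 0.03) was lost without any 1 of the 3 MyoD-alone libraries or F/R/C replicate 2 or 3 (adjusted p up to 0.076).

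Car9 on day 10 was at 0.37, 0.495 and 0.418 CPM with MyoD alone and 0.437, 0.779 and 6.21 CPM with F/R/C, and only F/R/C replicate 3 stood clearly apart. The call (log2 change 2.54, SE 0.95, adjusted p = 0.032) was lost without that library (0.64, adjusted p = 0.64) and without any 1 MyoD-alone library (adjusted p up to 0.076). Its average difference of 1.74 (SE 0.48, adjusted p = 0.0022) was 0.54 without the libraries numbered 3 (adjusted p = 0.19), and the mean log2 difference was 0.12, 0.13 and 1.79 in the replicate numbers 1, 2 and 3. Replicate 3 of F/R/C had the highest sum of differentiated muscle markers on day 10, 23137 CPM against 13694 and 18876 CPM. It also had the highest fibroblast sum, 5470 CPM against 3333 and 1448 CPM, and the lowest proliferation sum, 585 CPM against 1290 and 1094 CPM. The part of these differences in the Car9 value was not tested.

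Aldoc and Pygl, both at low counts, had the largest average differences. Aldoc on day 4 had at most 2 reads in each MyoD-alone library and was at 0.445, 0.632 and 1.62 CPM with F/R/C, at least 5.79-fold higher by the mean against a floor of 3 reads per library (adjusted p = 0.026). On days 6, 8 and 10 it was at 0.321, 1.09 and 3.14 CPM, 0.598, 0.524 and 3.9 CPM and 0.636, 0.389 and 2.61 CPM with F/R/C, and at 0.0519, 0.249 and 0.0518 CPM, 0.183, 0 and 0.201 CPM and 0.185, 0.149 and 0.139 CPM with MyoD alone. The F/R/C libraries lay above on each of these days, and each day's call was lost without F/R/C replicate 3 (adjusted p of 0.15, 0.087, 0.11 and 0.15 on days 4, 6, 8 and 10). The average difference (log2 change 2.70, SE 0.46, adjusted p = 6.1e-06) was called without the libraries numbered 3 as well. Pygl on day 8 was at 0.87, 0.475 and 0.956 CPM with MyoD alone and 2.23, 1.18 and 9.73 CPM with F/R/C (log2 change 2.51, SE 0.97, adjusted p = 0.044), lost without F/R/C replicate 3 (1.24, adjusted p = 0.38), while its average over the days was 1.89 (SE 0.45, adjusted p = 0.00046).

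Egln3 was the gene lowered by F/R/C at the start. On day 2 it was at 139.7, 143 and 99.8 CPM with MyoD alone and 31.3, 24.8 and 11.7 CPM with F/R/C, 5.64-fold lower (log2 change -2.50, SE 0.43, adjusted p = 0.00027). On day 4 it was at 198, 186 and 238 CPM and 65.8, 71.7 and 47.9 CPM (log2 change -1.75, SE 0.41, adjusted p = 0.0022), again with no overlap. By day 10 the values were 61.7, 73.6 and 44.4 CPM and 53.9, 46.3 and 113 CPM, which overlapped. The log2 difference went from -2.50 on day 2 through -1.75, -0.72 and 0.31 to 0.25 on day 10. The change from day 2 to day 10 was itself tested and called (log2 change 2.74, SE 0.58, adjusted p = 0.0059), and Egln3 was the 1 gene of the 35 called in this test, beside 2.24% of all genes higher, 3.77% lower and 6.01% in either direction. Of the genes lower with F/R/C on day 10, Pdk4 was at 160.4, 281 and 83.9 CPM with MyoD alone and 49.3, 24.2 and 86.6 CPM with F/R/C (log2 change -1.71, SE 0.66, adjusted p = 0.038). The groups overlapped, and the call was lost without MyoD-alone replicate 1 or 2 or F/R/C replicate 1 or 2 (adjusted p up to 0.22). Hk2 on day 6 was lower with F/R/C, at 59.6, 54.5 and 102 CPM against 130.4, 159.6 and 148 CPM (log2 change -1.02, SE 0.26, adjusted p = 0.0042), and under 2-fold in 8 of 13 alternatives.

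The muscle isoforms themselves were all under 2-fold between F/R/C and MyoD alone over the average of the days, and so not called. The log2 differences were -0.40 (SE 0.15) for Eno3, 0.09 (SE 0.26) for Pgam2, -0.29 (SE 0.20) for Pfkm and 0.35 (SE 0.26) for Pygm. Eno3 was lower at an unadjusted p under 0.05 in edgeR's test, over the average and on day 2. It was called over the average when no minimum fold change was asked. Its mean log2 difference was -0.46, -0.82 and -0.0 in the replicate numbers 1, 2 and 3. In number 3 it was higher with F/R/C on 3 of the 5 days. The sum of the differentiated muscle markers was 26995 to 45537 CPM with MyoD alone and 32357 to 46095 CPM with F/R/C on day 4.

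Established bulk iMPCs were compared with the F/R/C cells of day 10. Of the 35 genes, 14 were higher and 0 lower in bulk iMPCs, beside 3.33% and 6.24% of all genes. In either direction 40% of the 35 genes and 9.57% of all genes were called. For the 0 lower, edgeR found 0 at an unadjusted p under 0.05 and DESeq2 called 0. The median log2 fold change was 0.97 over the 35 genes and 0.03 over all genes tested, and 26 of the 35 genes had all 3 bulk iMPC libraries above all 3 day 10 libraries, while 36.7% of all genes had groups that did not overlap in either direction. The bulk iMPC libraries were all among the most deeply sequenced, so depth and this group cannot be told apart.

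Car9, Slc2a3 and Bnip3 were furthest apart. Car9 was at 51.6, 48.6 and 60.8 CPM in bulk iMPCs and 0.437, 0.779 and 6.21 CPM with F/R/C on day 10, 21.4-fold higher (log2 change 4.42, SE 0.93, adjusted p = 0.0011), and the log2 change was 6.40 without F/R/C replicate 3. Slc2a3 was at 77.8, 55.2 and 50.9 CPM against 5.76, 3.16 and 7.1 CPM (log2 change 3.52, SE 0.84, adjusted p = 0.0031). Bnip3 was at 507, 467 and 388 CPM against 39.9, 41.7 and 105 CPM, 7.3-fold higher (log2 change 2.87, SE 0.53, adjusted p = 0.00027). None of these groups overlapped. Pfkp was at 393, 433 and 292 CPM against 61.1, 46.3 and 70.7 CPM (log2 change 2.65, SE 0.37, adjusted p = 1.2e-05), and Pdk1 at 269, 218 and 215 CPM against 28.5, 29 and 67.8 CPM (log2 change 2.49, SE 0.53, adjusted p = 0.0012). Egln3, Tpi1, Pgk1, Hk1, Ldha and Eno3 were also higher, by log2 changes of 1.85, 1.57, 1.28, 1.33, 1.16 and 1.40, and these calls held without each library in turn. Aldoc (2.76), Pfkfb3 (1.30), an enzyme that makes the activator of phosphofructokinase, and Gys1 (1.24) were called, but not without F/R/C replicate 1 (adjusted p of 0.081, 0.051 and 0.061) or replicate 2 (0.089, 0.061 and 0.053).

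Against bulk myoblasts, 17 of the 35 genes were higher in bulk iMPCs and 1 lower, beside 10.9% and 8.7% of all genes. This was 51.4% of the 35 genes against 19.6% of all genes in either direction, with a median log2 fold change of 1.03 beside 0.01 over all genes tested. Car9 was at 51.6, 48.6 and 60.8 CPM in bulk iMPCs and 0.359, 0.801 and 0.328 CPM in bulk myoblasts, 104-fold higher (log2 change 6.70, SE 1.06, adjusted p = 1.6e-05, and 7.29 without myoblast replicate 2). Slc2a3 was at 77.8, 55.2 and 50.9 CPM against 0.269, 1.2 and 0.801 CPM, 77.9-fold higher (log2 change 6.28, SE 0.97, adjusted p = 1.3e-05). Pygl was at 21.9, 26 and 22.7 CPM against 0.583, 2.1 and 0 CPM (log2 change 4.67, SE 1.02, adjusted p = 0.00072), with 0 reads in myoblast replicate 3 and a log2 change of 6.41 without myoblast replicate 2. All 3 iMPC libraries lay above all 3 myoblast libraries for each of these genes. Slc16a3 (4.02, SE 0.84), Pfkp (3.37, SE 0.38), Pfkfb3 (3.32, SE 0.39), Bnip3 (2.90, SE 0.53) and Pdk1 (2.72, SE 0.54) followed, each called without each library in turn. Pfkfb4 was also called higher, but not without iMPC replicate 1 (log2 change 0.79, adjusted p = 0.14) or 3, or myoblast replicate 1 or 2.

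Pdk4 was the 1 gene lower in bulk iMPCs, at 72.2, 61.6 and 71.3 CPM against 178, 176 and 591 CPM in bulk myoblasts (log2 change -2.20, SE 0.67, adjusted p = 0.011). Without myoblast replicate 3, the library with little differentiated muscle RNA, the change was -1.37 with an adjusted p of 0.14. None of the 4 muscle isoforms was called different between these groups: Eno3 was at 682, 523 and 431 CPM against 1253, 839.6 and 471 CPM and Pygm at 686, 483 and 545 CPM against 542, 469.8 and 40.6 CPM. The groups overlapped for both genes.

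**Figure D4:**
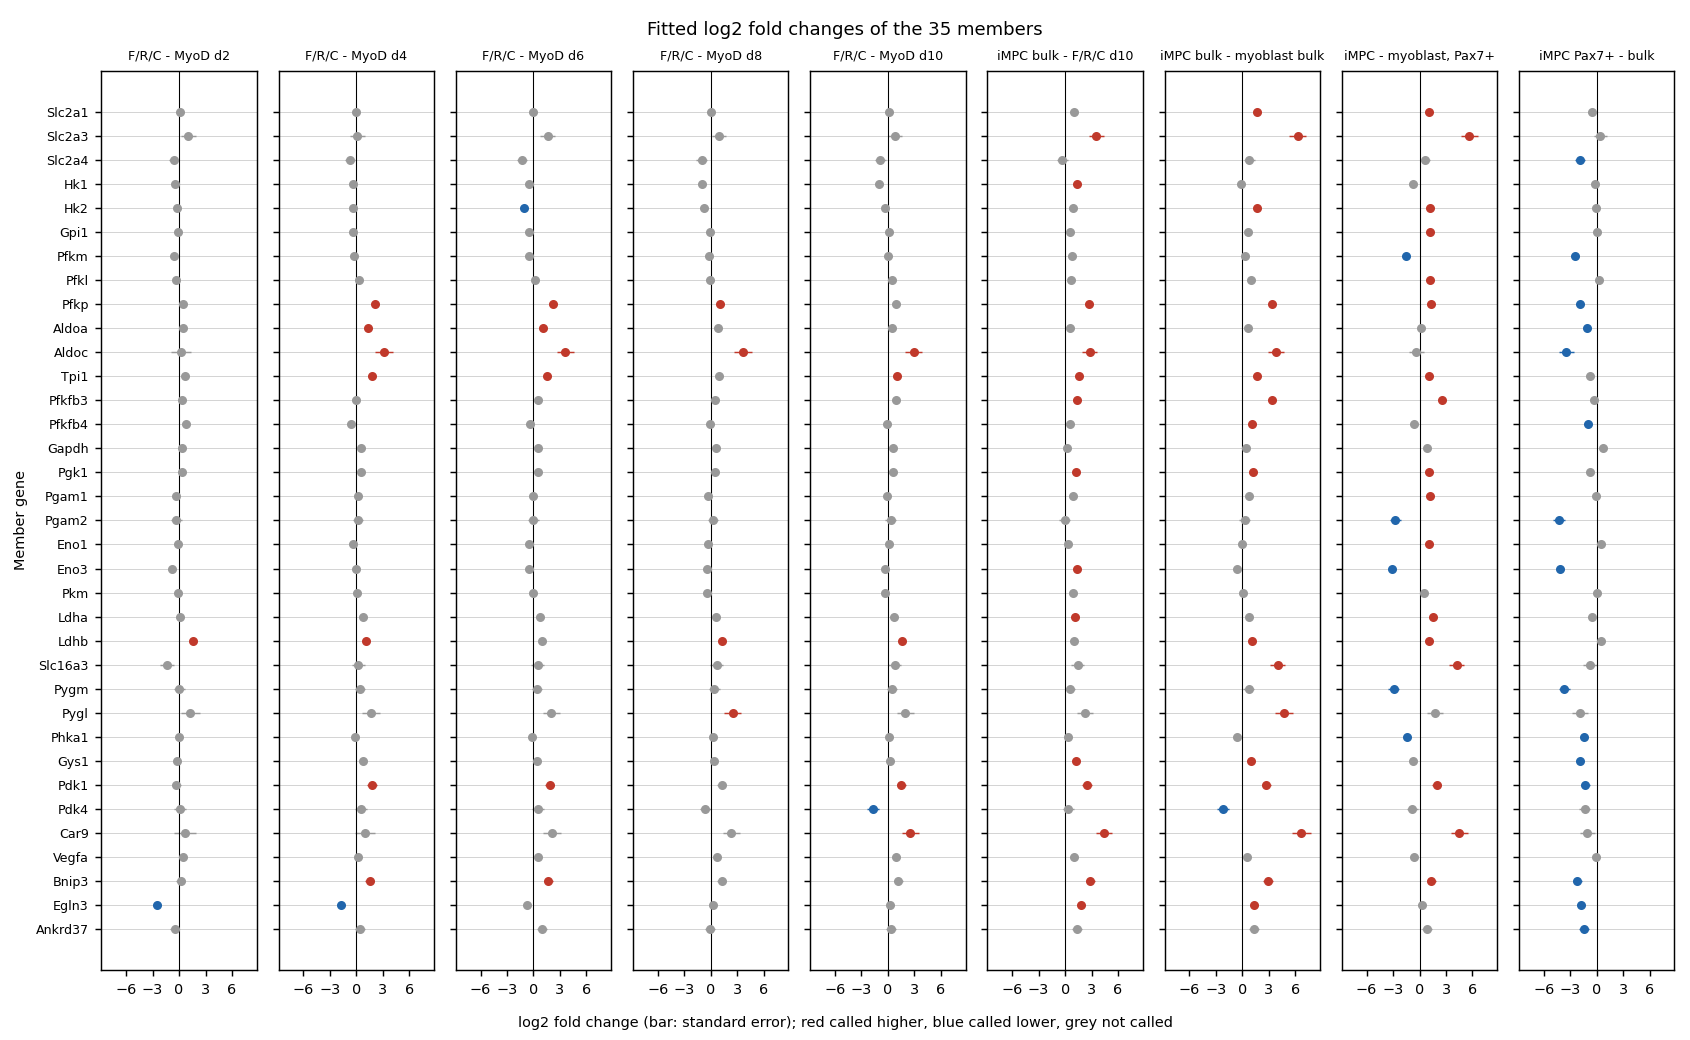
Log2 fold change with its SE for the 35 genes in 9 of the comparisons, one per panel, with genes called higher in red, called lower in blue and not called in grey. In bulk iMPCs against F/R/C day 10 the 14 called genes are all higher, and in Pax7-positive iMPCs against bulk iMPCs the 15 called genes are all lower.

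The sorted Pax7-positive cells of the iMPC cultures and of the myoblasts were then compared, and 17 of the 35 genes were higher and 5 lower in the iMPC cells, beside 12.4% and 17.6% of all genes. In either direction 62.9% of the 35 genes and 30% of all genes were called. Slc2a3 was at 213, 15.2 and 16.3 CPM against 0.918, 3.81 and 0.0544 CPM (log2 change 5.64, SE 0.94, adjusted p = 1.1e-05), Car9 at 55.1, 14.1 and 8.53 CPM against 0.635, 0.635 and 2.28 CPM (log2 change 4.48, SE 0.95, adjusted p = 0.00025) and Slc16a3 at 177, 36 and 34.3 CPM against 2.26, 6.85 and 4.08 CPM (log2 change 4.22, SE 0.86, adjusted p = 0.00014). Replicate 1 of the iMPC cells was the highest by far for all 3, and without it the log2 changes were 3.27, 3.29 and 3.00, still called. For Slc2a3 the change was 7.29 without myoblast replicate 2, and for Car9 5.32 without myoblast replicate 3. Of the 17 genes called higher, 7 were called without that iMPC library, and 12 of the 35 in all. The calls of Pfkp (0.17, adjusted p = 0.64), Slc2a1 (0.28, adjusted p = 0.52), Ldhb (0.32, adjusted p = 0.4) and Bnip3 (0.49, adjusted p = 0.46) were among those lost. Ldha (1.50, SE 0.25, adjusted p = 1.4e-05), Gpi1 (1.18), Pfkfb3 (2.51) and Pdk1 (1.95) were called without each library in turn.

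The 5 genes lower in the Pax7-positive iMPCs were all genes of muscle forms. Eno3 was at 26.9, 40.3 and 26.8 CPM against 361, 194 and 260.4 CPM in Pax7-positive myoblasts, 8.67-fold lower (log2 change -3.12, SE 0.37, adjusted p = 4.8e-08). Pygm was at 18.8, 73.6 and 42 CPM against 202, 226 and 588 CPM (log2 change -2.92, SE 0.62, adjusted p = 0.00026) and Pgam2 at 7.76, 15.1 and 6.00 CPM against 40.6, 41.9 and 109 CPM (log2 change -2.73, SE 0.63, adjusted p = 0.00062), without overlap. Without myoblast replicate 3 the last pair of changes was -2.26 and -2.10. Pfkm (-1.55, SE 0.46, adjusted p = 0.0063) and Phka1 (-1.47, SE 0.30) were called, but without myoblast replicate 3 they were at -1.12 (adjusted p = 0.057) and -0.93 (adjusted p = 0.0069, under 2-fold). The sum of differentiated muscle markers was 1414, 1949 and 1466 CPM in the Pax7-positive iMPCs and 4426 to 15563 CPM in the Pax7-positive myoblasts. Whether the lower muscle isoforms follow from that difference in content was not tested. Of the ubiquitous counterparts, Pgam1, Eno1, Pfkl and Pfkp were called higher in the iMPC cells and Pygl was not (log2 change 1.79, SE 0.91, adjusted p = 0.11). The Pfkl change was 1.17 (adjusted p = 0.0013), and 0.70, under 2-fold, without iMPC replicate 1, the library without which the Pfkp call was lost as well. Pgam1 was at 609, 410.2 and 374 CPM against 299.5, 169 and 144 CPM (log2 change 1.18, SE 0.22, adjusted p = 5.1e-05) and Eno1 at 1961, 1383 and 1434 CPM against 1049.7, 566 and 716 CPM (log2 change 1.03, SE 0.21, adjusted p = 0.00018). Both were under 2-fold without iMPC replicate 1 (0.95 and 0.86) and without myoblast replicate 3 (0.98 and 0.98), and Eno1 without myoblast replicate 2 (0.89).

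Between the sorted and the bulk iMPCs, 0 of the 35 genes were higher and 15 lower in the sorted cells, beside 9.88% and 20.5% of all genes. In either direction 42.9% of the 35 genes and 30.3% of all genes were called, with a median log2 fold change of -1.02 beside -0.13 over all genes tested. For the 0 higher, edgeR found 2 genes at an unadjusted p under 0.05, Gapdh and Eno1, and DESeq2 called 0. Pgam2 was at 7.76, 15.1 and 6.00 CPM in sorted and 209.7, 189 and 161 CPM in bulk iMPCs, 19.4-fold lower (log2 change -4.28, SE 0.67, adjusted p = 6e-06). Eno3 was at 26.9, 40.3 and 26.8 CPM against 682, 523 and 431 CPM (log2 change -4.12, SE 0.38, adjusted p = 2.4e-09) and Pygm at 18.8, 73.6 and 42 CPM against 686, 483 and 545 CPM (log2 change -3.67, SE 0.64, adjusted p = 2.6e-05). None of the sorted libraries reached a bulk library for these genes. Pfkm (-2.45), Bnip3 (-2.23), Pfkp (-1.92) and Egln3 (-1.79) were lower as well, and without replicate 1 of the sorted cells Bnip3 and Pfkp were at -3.08 and -3.01. Pfkfb4 was called lower too, but not without sorted replicate 1, 2 or 3 (adjusted p of 0.056, 0.091 and 0.064). Car9 and Slc2a3 were not called different between sorted and bulk iMPCs, but sorted replicate 1 stood apart for both. Car9 was at 55.1, 14.1 and 8.53 CPM in sorted and 51.6, 48.6 and 60.8 CPM in bulk iMPCs. Slc2a3 was at 213, 15.2 and 16.3 CPM against 77.8, 55.2 and 50.9 CPM. For both genes sorted replicates 2 and 3 lay below every bulk library. The sum of differentiated muscle markers was 1414 to 1949 CPM in the sorted and 22483 to 29268 CPM in the bulk iMPCs, and that of the proliferation genes 2296 to 2870 CPM against 745 to 1576 CPM. The part of these contents in the lower values was not tested. Sorting and the effective-length setting of the sorted libraries cannot be told apart in this comparison.

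Sorted and bulk myoblasts differed in 3 of the 35 genes, all lower in the sorted cells, beside 2.2% of all genes higher and 4.03% lower. In either direction 8.57% of the 35 genes and 6.23% of all genes were called, and the count was 5 without sorted replicate 1 or 3. Pdk4 was at 28.3, 79.1 and 32 CPM in sorted and 178, 176 and 591 CPM in bulk myoblasts (log2 change -2.76, SE 0.69, adjusted p = 0.0084), and without bulk replicate 3 the call was lost (-1.93, adjusted p = 0.066), while without sorted replicate 2 the change was -3.37. Eno3 was at 361, 194 and 260.4 CPM against 1253, 839.6 and 471 CPM (log2 change -1.65, SE 0.35, adjusted p = 0.0021) and Ldha at 345, 222 and 467 CPM against 1059.7, 747 and 719 CPM (log2 change -1.29, SE 0.25, adjusted p = 0.0013), neither pair overlapping. For the 0 higher, edgeR found 2 genes at an unadjusted p under 0.05, Vegfa and Hk1, and DESeq2 called 1. When edgeR was fitted to these 6 libraries only, it called 0 of 14528 genes in all, the 3 included (adjusted p of 0.43 for each), with 1423 genes at an unadjusted p under 0.05, and DESeq2 on all libraries called 1385 of 17325.

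A wider list of 65 other genes of these pathways, of which 60 passed the filter, was read beside the 35. In bulk iMPCs against F/R/C day 10, 17 of the 60 were higher and 1 lower, beside 3.33% and 6.24% of all genes. Against bulk myoblasts 25 were higher and 2 lower, beside 10.9% and 8.7% of all genes. Ak4, an adenylate kinase raised by HIF, was at 206, 163 and 151 CPM in bulk iMPCs and 15, 14.2 and 27 CPM with F/R/C on day 10 (log2 change 3.21, SE 0.65, adjusted p = 0.00073). Ndrg1, a hypoxia-induced gene, was at 84.8, 105 and 84.4 CPM against 8.63, 12.5 and 25.2 CPM (log2 change 2.56, SE 0.48, adjusted p = 0.00032), and Bhlhe40, a transcriptional repressor also raised by hypoxia, at 184, 178 and 182 CPM against 17.2, 12.3 and 69.3 CPM (log2 change 2.46, SE 0.65, adjusted p = 0.0068). All bulk iMPC libraries lay above the day 10 libraries for these 3 genes. Egln2, another HIF prolyl hydroxylase, was the 1 gene lower, at 20.6, 20.9 and 18.3 CPM against 47.8, 46.9 and 42.1 CPM (log2 change -1.20, SE 0.19, adjusted p = 4.7e-05).

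Over the average of the days, 11 of the 60 genes were higher with F/R/C and 3 lower, beside 11.6% and 10.5% of all genes. In either direction 14 of the 60 were called, a share near the 22.1% of all genes. Hif3a, a HIF subunit that can act as an inhibitor, had 0 to 4 reads in every MyoD-alone library, and with F/R/C it was at 0.489, 0.895 and 1.33 CPM on day 4 and 8.98, 15.2 and 18.3 CPM on day 10 (adjusted p = 1.1e-10). Fbp2, the muscle fructose bisphosphatase, which runs against glycolysis, was at 0.156, 0.299 and 0.104 CPM with MyoD alone and 17.5, 14.6 and 17.6 CPM with F/R/C on day 6, with an average difference of 4.81 (SE 0.38, adjusted p = 6.9e-12). Both genes were higher in all 3 F/R/C libraries of those days. Hkdc1, a hexokinase-like gene, was at no more than 1.10 CPM in all libraries of the time courses. The 3 lower genes were Bhlhe40 (-1.79, SE 0.29, adjusted p = 2.4e-06), Plod2, a collagen-modifying enzyme (-1.51, SE 0.12, adjusted p = 4.3e-12), and Slc2a10, a transporter related to GLUT1 (-1.15, SE 0.24, adjusted p = 0.00011). Members of this list thus moved in both directions under F/R/C. Bhlhe40 and Plod2 are known as hypoxia-induced genes, and the cause of their lower values with F/R/C was not tested. On day 2, Bhlhe40 was at 46.5, 54.8 and 61.4 CPM with MyoD alone and 5.99, 4.88 and 8.61 CPM with F/R/C.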

How the data were processed

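Single-end poly-A RNA-seq libraries from 45 samples in 15 groups of 3 were used, grouped by the labels. Per the submitters' processing notes and the file headers, the deposited tables hold kallisto estimated counts, which divide a read between the transcripts it fits, and TPM, a per-length level from the same tables, on GRCm38.p6. The notes name kallisto 0.44, Trimmomatic 0.36, bcl2fastq 2.19 and edgeR 3.28. The counting strand setting is not given in the sources used here.

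Transcripts were matched to GENCODE M21 (121104 of 121843 matched, holding 99.4% to 99.8% of the reads of a library), and estimated counts were summed per gene over 35675 genes and rounded. Of the 35 genes, 22 share reads with another gene, so their counts depend on how kallisto divided those reads. Aldoa levels and tests use the annotated gene of that symbol with 12 transcripts. Another gene with the same symbol, with 2 transcripts, was left out of them. The median gap between length and effective length differed between the 6 sorted libraries and the others, and sorting and that setting cannot be told apart.

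All 45 libraries were fitted together with edgeR 4.0.16 in R 4.3.3 (TMM, filterByExpr, quasi-likelihood test, 1 coefficient per group, 30 residual degrees of freedom, 17325 genes), with Benjamini-Hochberg adjustment. A gene was called where the adjusted p was under 0.05 and the difference at least 2-fold. CPM uses TMM library sizes, and shares use TPM. A floor of 3 reads per library stands for groups at or under 3 reads. Tested on simulated counts of the day 10 comparison of F/R/C with MyoD alone (17119 genes, 200 changed 4-fold), the fit called 69.5% of the changed genes. Of the 148 genes it called, 9 had not been changed.

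Alternatives were RLE size factors, no filter, no minimum fold change, the replicate number as a block, fits of the compared groups only, DESeq2 1.42.0 and leaving out each library. The fit without the F/R/C libraries numbered 3 was added after the data were seen. Same-numbered libraries of F/R/C and MyoD alone deviated together on days 2, 4 and 6 (lowest correlations of deviations 0.346, 0.241 and 0.223), so the numbers were taken to pair those samples. Differences given by replicate number over the 5 days also match libraries of days 8 and 10 by number. They are a description, since the numbers were not taken to pair the samples of those days. The members and lists were chosen with earlier results of these data known. Named genes are all 35, with values in every library for the 4 muscle isoforms, their counterparts and up to 3 called genes with the largest change per comparison, and up to 3 other pathway genes per direction in 2 of the comparisons. Values in every library of further members were added after they were seen.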

Additional observations from a re-analysis of the deposited data

Results flagged for a closer look

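Egln3 stood out because its difference between F/R/C and MyoD alone changed with time, tested as the difference on day 10 minus that on day 2. It was 2.74 on the log2 scale (SE 0.58, adjusted p = 0.0059 in edgeR's quasi-likelihood test), a 6.69-fold change. The difference was -2.50 on day 2 and 0.25 on day 10. All 3 F/R/C libraries were lower than all 3 MyoD-alone libraries on day 2, and the groups overlapped on day 10. On day 10 the highest of these libraries was F/R/C replicate 3. The call held in the 19 alternatives run for it, with log2 values of 2.01 to 3.14.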

How the results depend on the processing

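Of 163 calls of single genes, 95 held in every alternative run and 68 were lost in at least 1. None of 2226 results under the alternatives reversed a direction. These include the setting with no minimum fold change, which uses the same fit and could neither lose nor reverse a call. Of 232 counts of called genes under the alternatives, 211 stayed within 1.5 times the reported count. With no minimum fold change, 11, 9 and 13 genes were called for F/R/C against MyoD alone on days 6, 8 and 10, and 21 over the average of the days. Fitted on the compared groups alone, edgeR called 3 on day 10, 2 for the change from day 2 to day 10, and 0 for sorted against bulk myoblasts, where the fit of all groups called 3 and found 2 higher and 10 lower at an unadjusted p under 0.05. DESeq2 called 8 on day 8 and 5 for sorted against bulk myoblasts. Without the F/R/C libraries numbered 3, 9 were called for F/R/C day 10 against MEFs, 1 on day 8 and 4 over the average. Leaving out 1 library gave 5 to 8 genes on day 4, 3 to 8 on day 6, 2 to 8 on day 8, 12 to 22 for sorted iMPCs against sorted myoblasts, and 3 to 5 for sorted against bulk myoblasts. The cause of these changes was not tested.

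In the fit with a replicate block, the counts on days 2, 4 and 6, where the numbers pair the samples, were 2, 8 and 7, as without it. In the other comparisons at least 1 of the 3 numbers had a correlation under 0.1, and the numbers were not taken to pair the samples, although the libraries numbered 3 of the MEF, MyoD-alone, F/R/C and iMPC groups all carried Y-linked reads and those numbered 1 and 2 Xist. There the block gave 5 genes for sorted against bulk myoblasts, and the calls of Car9 (2.22, adjusted p = 0.054) and Pdk4 (-1.54, adjusted p = 0.06) on day 10, of Bnip3 (1.18, adjusted p = 0.053) and Pdk1 (1.21, adjusted p = 0.054) for F/R/C day 10 against MEFs, and of Pfkm (1.12, adjusted p = 0.052) for F/R/C day 2 against MEFs were not made. Depth limits Aldoc, Pygl, Car9 and Ankrd37, which had few reads in many libraries.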

Other observations

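Single transcripts of the abundant members were not even between groups, chosen here after their values were seen. The transcript Aldoa-203 held 44.9%, 48% and 39.9% of Aldoa TPM in the bulk iMPC libraries. In bulk myoblasts it held 12.9%, 57.6% and 0.781%, and with MyoD alone on day 10 it held 9.59%, 24.2% and 6.56%. It was at 1.26% on average in the Pax7-positive iMPCs. These shares are of the TPM of both genes with the symbol Aldoa. Aldoa is aldolase A, the main muscle aldolase. The bulk iMPC libraries are all among the most deeply sequenced, so depth and group cannot be told apart for them. Bulk myoblast replicates 1, 2 and 3 held 22.0, 35.5 and 23.7 M estimated reads. The part of depth in their shares was not tested.

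The transcript Pkm-210 was at 0 in all libraries that were not sorted, and held 29.4% of Pkm TPM on average (SD 0.468, n = 3) in Pax7-positive iMPCs and 28% (SD 2.63, n = 3) in Pax7-positive myoblasts. The sorted libraries also have the other effective-length setting, and these cannot be told apart.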
